A study of Caenorhabditis elegans with 12 samples.

Results

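Messenger RNA of *osm-9(ok1677)* worms was compared with that of wild type N2 worms after 6 h on agar plates with 200 mM NaCl. Both strains were kept at 20 °C and both were staged by eye as late L4 larvae, with allowance for a slight delay of the mutant, before the move to the plates. The comparison used the 4 libraries labelled *osm-9*, for which the methods give the allele ok1677, and the 2 libraries labelled N2 at 200 mM NaCl, 6 of the 12 libraries of the series. The other 6 libraries, 4 of *osm-9(ok1677)* and 2 of N2 on standard plates (51 mM NaCl), entered the same fit and gave the strain difference without added salt. Each library was made from polyA+ RNA of a pool of whole worms, and the study states 2 to 4 independent experiments for each condition. The mutant is 1 deletion strain, for which the methods mention no backcross, so the allele and the rest of its genome cannot be told apart. Each of the 6 libraries held between 17808108 and 21418277 counts. Of 21204 loci with any count, 15403 had enough counts for a test.

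OSM-9 is a TRPV cation channel subunit that ASH and other sensory neurons of *C. elegans* use to detect noxious and osmotic stimuli. Worms placed on high salt lose water and then recover their volume by taking up ions and water. They also accumulate glycerol, made with glycerol-3-phosphate dehydrogenase. The osmotic response also includes antimicrobial peptide genes of the epidermis and genes that handle damaged protein. Each locus was tested by the two-sided quasi-likelihood F test of edgeR, and loci with a Benjamini-Hochberg adjusted p of 0.05 or less were called. Levels are TMM-scaled CPM (counts divided by library size, on the usual scale of this unit), fold changes are *osm-9(ok1677)* over N2 on the log2 scale, and SE is the standard error of a log2 fold change.

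The targeted gene itself was counted at a low level in both strains. *osm-9*, on the minus strand of chromosome IV (3551090 to 3557431 of WBcel235), had 34, 25, 41 and 38 counts in the *osm-9(ok1677)* libraries at 200 mM NaCl, against 24 and 36 in the N2 libraries. The groups overlapped, and the log2 fold change was 0.20 (SE 0.32, adjusted p = 0.774, edgeR). At 51 mM NaCl *osm-9* was called higher in the mutant, with a log2 fold change of 1.37 (adjusted p = 0.0299, edgeR), and the difference between the concentrations was not called (-1.16, SE 0.47, adjusted p = 1, edgeR). A count over the whole gene does not show whether the deleted part is missing, so this gene is no check of the labels.

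At 200 mM NaCl 990 loci were called, 6.43% of the 15403 tested. Of these, 636 (4.13% of those tested) were higher and 354 (2.3%) were lower in *osm-9(ok1677)*. The falls were smaller than the rises, with a median size of 1.02 against 1.54 on the log2 scale. Among the 354 lower loci 184 differed by at least 2-fold, 44 by at least 4-fold and 13 by at least 16-fold, and among the 636 higher loci these numbers were 473, 220 and 48. Of the 17 proteostasis genes that the study lists as higher in the mutant on 200 mM NaCl, 14 were among the higher loci, which leaves 976 called loci outside that list, all 354 lower ones among them. All 990 called loci had libraries that did not overlap between the strains, as had 34.3% of all loci tested (17.5% with *osm-9(ok1677)* higher and 16.8% with it lower).

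The number of calls rests on the 2 N2 libraries in particular. Without replicate 1 of N2 there were 145 higher and 126 lower loci, and without replicate 2 of N2 there were 156 and 79. Without replicate 4 of *osm-9(ok1677)* the numbers were 389 and 159, and without its replicate 1 the lower loci numbered 235. Of the 129 named genes that were called, 47 stayed called under every setting that gave a value. Where a gene described next was not among them, the largest adjusted p over the settings is given for some genes only. A gene without this value may also have lost its call in some setting, as did the abundant *lys-1*, *vha-19* and *lbp-6*.

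The libraries also differed in genes that mark developmental stage. The 7 adult genes (the vitellogenins, which encode yolk proteins, and the adult collagen *col-19*) summed to 37156, 15978, 9315 and 31962 CPM in *osm-9(ok1677)*, against 43811 and 39295 CPM in N2. None of the 7 was called by edgeR or DESeq2 (0 at an unadjusted p of 0.05), and their median log2 fold change was -0.92, against 0.05 over all loci tested. The 14 genes of the larval molt summed to 303, 637, 1020 and 423 CPM in *osm-9(ok1677)*, against 253 and 383 CPM in N2, and 2 of them, *let-653* and the study-listed *fbn-1*, were higher. Replicates 2 and 3 of *osm-9(ok1677)* were thus the lowest for adult genes and the highest for molting genes. The 14 oocyte and eggshell genes summed to between 1672 and 4441 CPM in *osm-9(ok1677)* and to 4929 and 2769 CPM in N2, and none was called by edgeR or DESeq2 (0 at an unadjusted p of 0.05). No member of these lists was at 0 counts in any of the 6 libraries. Without replicates 2 and 3 of *osm-9(ok1677)* there were 370 higher and 309 lower loci, and without replicates 1 and 4 there were 311 and 96. The part of these stage markers in the strain differences was not tested.

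The largest falls were at neighbouring genes near the left end of chromosome V. *npr-5*, a neuropeptide receptor gene, had 0 counts in each of the 4 *osm-9(ok1677)* libraries, against 148 and 214 counts (7.57 and 10.8 CPM) in N2. Set against a floor of 3 counts over the 4 mutant libraries, it was at least 241-fold lower (adjusted p = 9.46e-05, edgeR). *lgc-26*, which encodes a predicted ligand-gated ion channel subunit, had 0 counts in every *osm-9(ok1677)* library and 95 and 114 in N2, at least 139-fold lower (adjusted p = 0.00107, edgeR). *nhr-204*, a nuclear hormone receptor gene, had 0 counts in every *osm-9(ok1677)* library and 102 and 94 in N2, at least 131-fold lower (adjusted p = 9.33e-05, edgeR). These 3 were the only called single-gene loci without a count in any *osm-9(ok1677)* library at 200 mM NaCl.

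Their neighbour *F33E11.2* had 2, 0, 0 and 0 counts in *osm-9(ok1677)*, against 522 and 418 in N2. The ratio of *osm-9(ok1677)* to N2 was 0.00106 (95% interval from an exact binomial, 0.000129 to 0.00386, counting error only; adjusted p = 3.91e-05, edgeR). The same held for genes of this stretch that are too low to test or were not called. From *kin-33* to *F33E11.2* (chromosome V, 228134 to 300005) 10 loci had any count. Together they held 2 counts in the 4 *osm-9(ok1677)* libraries at 200 mM NaCl, against 1764 in the 2 N2 libraries. Over the whole series the sums were 4 counts in 8 *osm-9(ok1677)* libraries and 3345 in 4 N2 libraries. Directly before *kin-33*, *srh-78* and *DC2.6* had at most 2 counts in any library of either strain at 200 mM NaCl. The counts therefore do not place the left edge of the stretch. Genes beyond these on the left, and directly on the right, were counted in both strains. *DC2.5* had 301, 168, 187 and 220 counts in *osm-9(ok1677)*, against 246 and 322 in N2, and *F33E11.3*, next to *F33E11.2*, had 8883 counts over the 8 *osm-9(ok1677)* libraries of the series, against 3245 over its 4 N2 libraries. Genomic DNA was not measured.

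**Figure D1:**
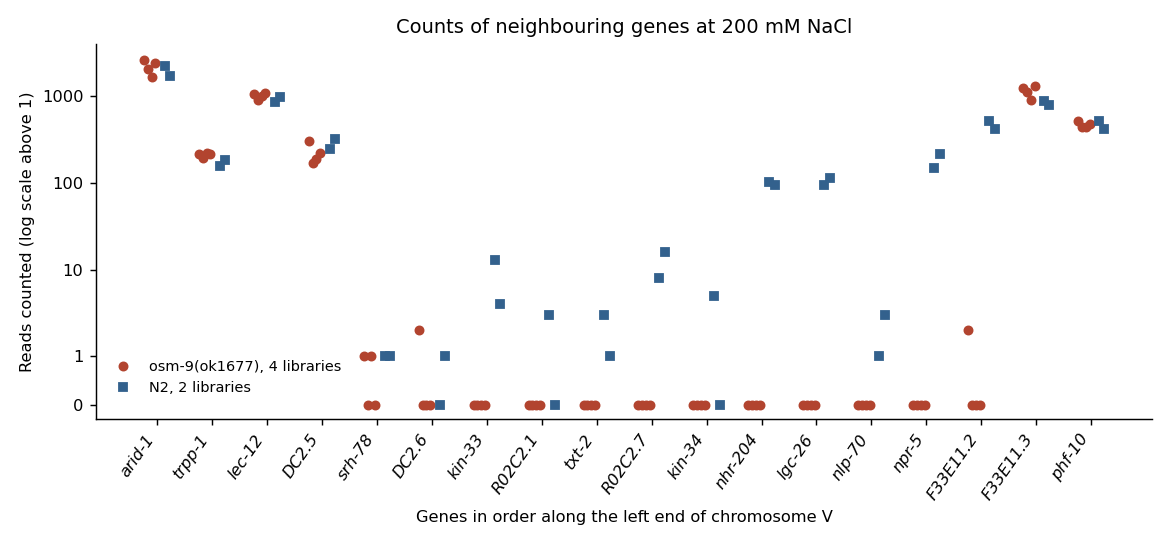
Reads counted (vertical axis, log scale above 1) in the 4 *osm-9(ok1677)* libraries (circles) and the 2 N2 libraries (squares) at 200 mM NaCl, for neighbouring genes in their order along chromosome V. From *kin-33* to *F33E11.2* the *osm-9(ok1677)* libraries hold 2 counts in all against 1764 in N2. *srh-78* and *DC2.6*, directly before *kin-33*, are almost uncounted in both strains. The other genes shown are counted at similar levels in both strains.

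A second group of neighbours that fell lies near the right end of chromosome V (17637982 to 17659385). It holds the F-box genes *fbxa-192* and *fbxa-108* and the pseudogenes *F57G4.4*, *F59A1.9* and *F59A1.8*. F-box proteins bring substrates to SCF ubiquitin ligases. *fbxa-192* had 0.192, 0.214, 0.101 and 0.052 CPM in *osm-9(ok1677)*, against 7.21 and 5.17 CPM in N2 (log2 fold change -5.40, SE 0.44, adjusted p = 3.91e-05, edgeR). *fbxa-108* had 0.624, 0.643, 0.81 and 0.623 CPM in *osm-9(ok1677)*, against 12.1 and 9.78 CPM in N2 (log2 fold change -4.0, SE 0.25, adjusted p = 4.86e-06, edgeR). The 5 loci fell by 4.0 to 6.17 on the log2 scale. F-box genes and their pseudogenes have near-identical copies, so reads could have been divided between them and the values of single members are uncertain.

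BTB and MATH domain genes, which can act as substrate adaptors of CUL-3 ubiquitin ligases, formed a similar group on chromosome II. From 2027612 to 2039388 the 5 neighbours *bath-1*, *bath-3*, *bath-5*, *btb-4* and *bath-19* were all lower, by 1.01 to 2.71 on the log2 scale. The closest of them in level, *bath-5*, had 10.1, 10.2, 10.8 and 10.3 CPM in *osm-9(ok1677)*, against 23 and 18.9 CPM in N2. Next to them *bath-24* averaged 0.55 ± 0.102 CPM in *osm-9(ok1677)* (SD, n = 4) and 4.33 ± 0.818 CPM in N2 (SD, n = 2), and its log2 fold change was -2.96 (SE 0.24, adjusted p = 3.79e-05, edgeR). Elsewhere on the chromosome *bath-13* fell by 4.16 on the log2 scale. Over the 199 F-box and MATH genes tested, 14 were higher and 13 lower, 7.04% and 6.53% of the list against 4.13% and 2.3% of all loci, and the list's median log2 fold change was 0.14. The direction thus differed from one cluster of the family to the next.

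*Y49E10.16* on chromosome III (12430509 to 12433866) had the smallest adjusted p among the named falls. It had 1.87, 2.09, 2.38 and 2.03 CPM in *osm-9(ok1677)*, against 46.2 and 63.0 CPM in N2, a log2 fold change of -4.70 (SE 0.17, adjusted p = 5.68e-08, edgeR), and its adjusted p stayed at or under 6.74e-05 in all settings. *haf-6*, a half-molecule ABC transporter gene needed for efficient RNA interference, had 6.24, 6.11, 6.17 and 6.55 CPM in *osm-9(ok1677)*, against 38.1 and 44.2 CPM in N2. Its log2 fold change was -2.71 (SE 0.16, adjusted p = 3.59e-06, edgeR). Exons of *haf-6*, and of *gpdh-1*, *vha-19*, *aqp-3*, *lbp-6*, *col-147*, *osm-3*, *nlp-26*, *sod-3* and *srx-13* named further on, overlap a gene on the other strand. Reads of such pairs cannot be told apart, since the strand setting of the counting is not given in the sources used here. Of 33 ABC transporter genes tested 2 were higher (6.06%, against 4.13% of all loci), the P-glycoprotein genes *pgp-8* and *pgp-7*. Only *haf-6* was lower (3.03%, against 2.3%), while DESeq2 called 3 lower. The list's median log2 fold change was 0.05.

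The peptide genes *nspe-7*, *nspe-2* and *nspe-1* are neighbours on chromosome II. *nspe-1* had 2.02, 1.61, 0.304 and 0.416 CPM in *osm-9(ok1677)*, against 9.36 and 24.8 CPM in N2 (log2 fold change -3.97, SE 0.79, adjusted p = 0.0133, edgeR). *nspe-7* had 1.15, 0.214, 0.101 and 0.208 CPM in *osm-9(ok1677)*, against 8.13 and 12.8 CPM in N2, with replicate 1 of the mutant apart from its 3 other libraries (log2 fold change -4.60, SE 0.68, adjusted p = 0.00264, edgeR). Neither was called at 51 mM NaCl, where the log2 fold changes were -1.5 for *nspe-1* (adjusted p = 0.256, edgeR) and -2.10 for *nspe-7* (adjusted p = 0.0656, edgeR). The *nspe* genes resemble each other closely, so reads may be divided among them.

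**Figure D2:**
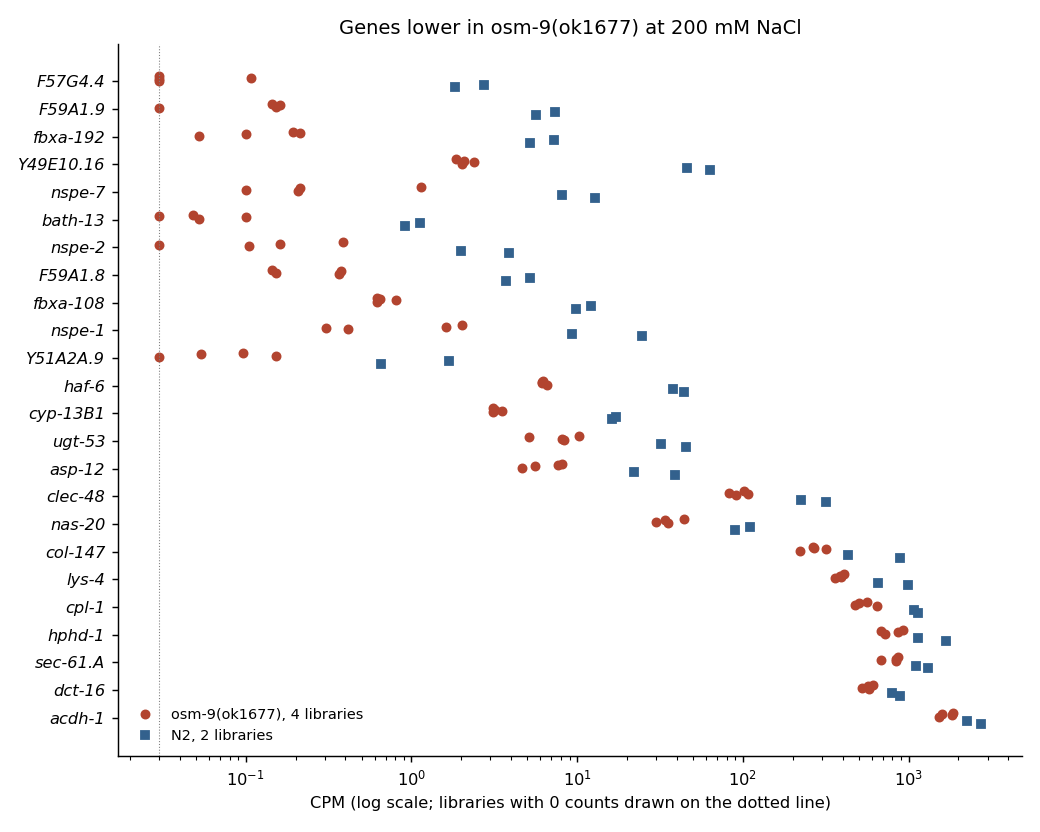
CPM (horizontal log axis) of genes called lower, ordered from the largest fall at the top to the smallest, with 4 *osm-9(ok1677)* libraries as circles and 2 N2 libraries as squares; a library with 0 counts is drawn on the dotted line. No gene shown has overlapping strains, and the distance between them shrinks from *F57G4.4* (-6.17 on the log2 scale) to *acdh-1* (-0.55), the most counted gene of the plot.

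The most abundant genes among the falls encode metabolic and secretory proteins. *acdh-1*, an acyl-CoA dehydrogenase of the propionate breakdown shunt, had 1860, 1592, 1822 and 1534 CPM in *osm-9(ok1677)*, against 2250 and 2749 CPM in N2 (log2 fold change -0.55, SE 0.14, adjusted p = 0.0411, edgeR; at most 0.223 over the settings). *hphd-1*, the hydroxyacid dehydrogenase of the same shunt, had 927, 678, 860 and 721 CPM in *osm-9(ok1677)*, against 1133 and 1673 CPM in N2 (log2 fold change -0.82, SE 0.20, adjusted p = 0.0337, edgeR; at most 0.263). The groups did not overlap for either gene. *sec-61.A*, a subunit of the channel that carries proteins into the endoplasmic reticulum, averaged 809 ± 83.0 CPM in *osm-9(ok1677)* (SD, n = 4) and 1209 ± 136 CPM in N2 (SD, n = 2), a log2 fold change of -0.58 (SE 0.13, adjusted p = 0.0211, edgeR; at most 0.168). *dct-16* fell by 0.56 on the log2 scale (adjusted p = 0.0284, edgeR; at most 0.15).

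*cpl-1*, the cathepsin L gene, was close to 2-fold lower and kept its call in all settings. It had 564, 500, 478 and 642 CPM in *osm-9(ok1677)*, against 1079 and 1136 CPM in N2 (log2 fold change -1.02, SE 0.16, adjusted p = 0.00405, edgeR; at most 0.0389). The aspartyl protease gene *asp-12* had 8.11, 7.66, 5.57 and 4.62 CPM in *osm-9(ok1677)*, against 22 and 39.2 CPM in N2 (log2 fold change -2.24, SE 0.32, adjusted p = 0.00203, edgeR). Of 20 cathepsin and aspartyl protease genes tested, these 2 were lower (10%) and *cpr-2* was higher (5%). The list's median log2 fold change was -0.14.

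Of 67 lipid metabolism genes tested, 4 were higher (5.97%, against 4.13% of all loci) and 4 lower (5.97%, against 2.3%), with a median log2 fold change of -0.14. *fat-2*, the delta-12 fatty acid desaturase, had 1376, 1151, 1350 and 1167 CPM in *osm-9(ok1677)*, against 747 and 836 CPM in N2 (log2 fold change 0.67, SE 0.12, adjusted p = 0.00638, edgeR; at most 0.0878 over the settings). The lipase genes *lipl-1* and *lipl-6* rose by 2.69 and 1.89 on the log2 scale. The lower members were *acdh-1*, *acdh-5* and the lipid-binding protein genes *lbp-6* and *lbp-8*. *lbp-6* averaged 269 ± 24.9 CPM in *osm-9(ok1677)* (SD, n = 4) and 439 ± 18.2 CPM in N2 (SD, n = 2), a log2 fold change of -0.71 (SE 0.12, adjusted p = 0.00611, edgeR).

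Genes of gut and immune defence changed in both directions within the same families. Of 13 lysozyme genes tested, *lys-10*, *lys-7* and *lys-1* were higher (23.1%) and *lys-4* and *ilys-2* were lower (15.4%). Lysozymes cut bacterial cell walls. *lys-4* had 410, 386, 391 and 362 CPM in *osm-9(ok1677)*, against 650 and 989 CPM in N2 (log2 fold change -1.08, SE 0.15, adjusted p = 0.00163, edgeR). *lys-7* had between 50.4 and 125 CPM in *osm-9(ok1677)*, and averaged 17.7 ± 8.97 CPM in N2 (SD, n = 2; log2 fold change 2.45, SE 0.44, adjusted p = 0.00857, edgeR; at most 0.101 over the settings). *lys-1*, the most abundant of the higher ones, averaged 504 ± 83.3 CPM in *osm-9(ok1677)* (SD, n = 4) and 254 ± 6.81 CPM in N2 (SD, n = 2). The list's median log2 fold change was 0.68.

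The C-type lectins, carbohydrate-binding proteins of which many respond to infection, rose more often than they fell. Of 122 tested, 15 were higher (12.3%) and 4 lower (3.28%), and the median log2 fold change was 0.56. *clec-60* had 12.1, 11.2, 19.9 and 15.2 CPM in *osm-9(ok1677)*, against 1.38 and 1.93 CPM in N2 (log2 fold change 3.14, SE 0.35, adjusted p = 0.000435, edgeR). The lower ones were among the better counted members. *clec-48* had 101, 82.2, 107 and 90.8 CPM in *osm-9(ok1677)*, against 225 and 318 CPM in N2 (log2 fold change -1.51, SE 0.18, adjusted p = 0.000769, edgeR). *clec-150* had 140, 128, 122 and 140 CPM in *osm-9(ok1677)*, against 239 and 293 CPM in N2 (log2 fold change -1.01, SE 0.12, adjusted p = 0.000828, edgeR). Both kept their calls in all settings, with adjusted p of at most 0.0128 and 0.0131. Of 26 saposin-like genes, which encode membrane-active proteins, 4 were higher (15.4%) and 2 lower (7.69%).

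Detoxification enzymes also gave calls in both directions, to be read against 4.13% higher and 2.3% lower over all loci. Of 56 UDP-glucuronosyltransferase genes tested, 5 were higher (8.93%) and 4 lower (7.14%), and of 54 cytochrome P450 genes 4 were higher (7.41%) and only *cyp-13B1* was lower (1.85%). *ugt-53* had 10.2, 5.09, 8.05 and 8.31 CPM in *osm-9(ok1677)*, against 32.1 and 45.1 CPM in N2 (log2 fold change -2.29, SE 0.29, adjusted p = 0.0012, edgeR). It stands between *T03D3.5* and *folt-2*, a folate transporter gene, which were lower by 2.74 and 1.33. *gst-24*, a glutathione S-transferase gene, was higher, with 41.1, 31.9, 28.8 and 36.3 CPM in *osm-9(ok1677)*, against 1.69 and 1.67 CPM in N2 (log2 fold change 4.36, SE 0.22, adjusted p = 9.21e-07, edgeR). Its neighbour *gst-20* rose by 1.65 and *gst-19*, in the same cluster, fell by 1.4 on the log2 scale. In all, 3 of 38 glutathione S-transferase genes were higher (7.89%) and 1 was lower (2.63%). The lower shares of the cytochrome P450 and glutathione S-transferase genes were thus under or near that of all loci.

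Genes of water, ion and osmolyte balance were of special interest on 200 mM NaCl. *gpdh-2*, a glycerol-3-phosphate dehydrogenase gene, had 228, 214, 226 and 185 CPM in *osm-9(ok1677)*, against 334 and 393 CPM in N2. The strains did not overlap, and the log2 fold change was -0.77 (SE 0.15, adjusted p = 0.014, edgeR; at most 0.124 over the settings). *gpdh-1*, the salt-induced gene of the pair, had 80.9, 52.6, 36 and 31.4 CPM in *osm-9(ok1677)*, against 120 and 149 CPM in N2. It did not overlap between the strains either, but with a log2 fold change of -1.42 (SE 0.41) its adjusted p was 0.062 (edgeR), so it was not called. It passed the threshold with DESeq2 (adjusted p = 0.0163) and edgeR's exact test (adjusted p = 0.0128). Over the settings that kept both N2 libraries its adjusted p ran from 1.74e-05 to 0.168 (edgeR). The lowest came from the replicate block on the 6 libraries at 200 mM NaCl. Replicate numbers 3 and 4 occur only in *osm-9(ok1677)*, so that fit takes the strain difference from numbers 1 and 2 alone. Without replicate 1 or 2 of N2 the log2 fold change was -1.57 or -1.32. Of 10 osmolyte enzyme genes *gpdh-2* was the only one called by the quasi-likelihood test (10% lower), while DESeq2 and the exact test each called 1 higher and 2 lower. The list's median log2 fold change was 0.15.

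*nhx-2*, a sodium/proton exchanger of the intestine, had 80.3, 79.4, 88.2 and 65.3 CPM in *osm-9(ok1677)*, against 120 and 186 CPM in N2 (log2 fold change -0.96, SE 0.21, adjusted p = 0.0206, edgeR; at most 0.2). *aqp-3*, an aquaporin gene, had 0.576, 0.268, 0.455 and 0.52 CPM in *osm-9(ok1677)*, against 1.38 and 1.27 CPM in N2 (log2 fold change -1.52, SE 0.34, adjusted p = 0.0233, edgeR; at most 0.143). *vha-19* and *vha-3*, which encode parts of the vacuolar proton pump, were higher, and these 4 made up the calls among 51 water and ion transport genes (3.92% in each direction). *nlp-29*, an epidermal antimicrobial peptide gene that high salt induces, had 117, 77.6, 81.8 and 91.6 CPM in *osm-9(ok1677)*, against 119 and 134 CPM in N2. It was not called (log2 fold change -0.46, SE 0.15, adjusted p = 0.0971, edgeR). Of 13 antimicrobial peptide genes tested only *cnc-3* was called (7.69%, against 4.13% of all loci). It was higher, at 8.09 against 2.93 CPM on average (log2 fold change 1.46, SE 0.28, adjusted p = 0.0103, edgeR). The list's median log2 fold change was 0.05. The small heat shock gene *hsp-16.2* had 17.9, 4.66, 7.09 and 8.05 CPM in *osm-9(ok1677)*, against 41.1 and 10.6 CPM in N2, with overlapping strains and no call (adjusted p = 0.275, edgeR). For *sod-3* the log2 fold change was -0.23 (SE 0.41, adjusted p = 0.801, edgeR).

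**Figure D3:**
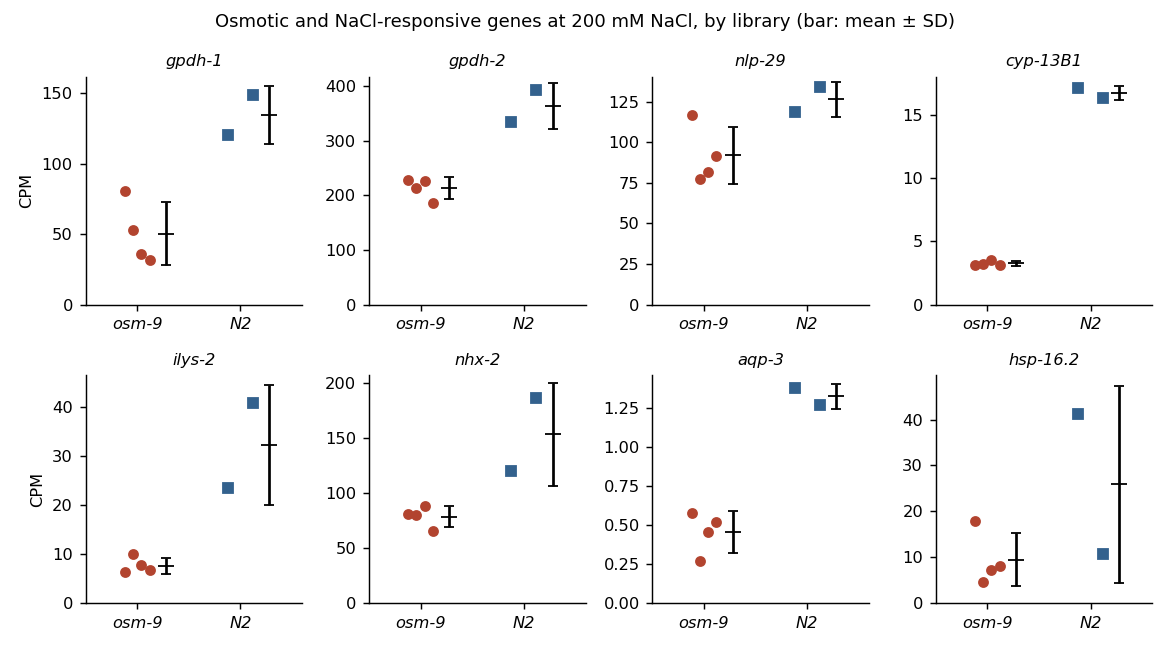
CPM at 200 mM NaCl (vertical axes from 0) of 8 osmotic and NaCl-responsive genes, with each *osm-9(ok1677)* library as a circle, each N2 library as a square, and bars for mean ± SD (n = 4 and n = 2). The libraries of the strains do not overlap for *gpdh-1*, *gpdh-2*, *nlp-29*, *cyp-13B1*, *ilys-2*, *nhx-2* and *aqp-3* and overlap for *hsp-16.2*; *gpdh-1* and *nlp-29* were not called.

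Of the 354 lower loci, 70 were not called without added salt. *cyp-13B1* had 3.12, 3.21, 3.54 and 3.12 CPM in *osm-9(ok1677)*, and averaged 16.7 ± 0.532 CPM in N2 (SD, n = 2; log2 fold change -2.36, SE 0.21, adjusted p = 7.37e-05, edgeR). At 51 mM NaCl its log2 fold change was -0.46 (SE 0.23, adjusted p = 0.212, edgeR). *ilys-2*, an invertebrate-type lysozyme gene, had 6.24, 9.91, 7.64 and 6.70 CPM in *osm-9(ok1677)*, against 23.5 and 40.9 CPM in N2 (log2 fold change -2.08, SE 0.36, adjusted p = 0.00714, edgeR), and 0.74 at 51 mM NaCl (adjusted p = 0.418, edgeR). *spp-12*, a saposin-like gene, gave -2.65 (adjusted p = 0.00181, edgeR) at 200 mM and -0.69 (adjusted p = 0.453, edgeR) at 51 mM NaCl. The response to salt, which shares its 200 mM libraries with these differences, was 0.98 in *osm-9(ok1677)* and 2.89 in N2 for *cyp-13B1*, and 3.56 in *osm-9(ok1677)* and 6.38 in N2 for *ilys-2*, on the log2 scale. For *gpdh-2* it was 0.62 in *osm-9(ok1677)* and 1.21 in N2, and for *gpdh-1* 2.07 in *osm-9(ok1677)* and 2.01 in N2.

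The difference between the strain differences at the 2 NaCl concentrations was tested for each locus. It was -1.90 (SE 0.32, adjusted p = 0.573, edgeR) for *cyp-13B1* and -2.82 (SE 0.68, adjusted p = 1, edgeR) for *ilys-2*, so neither passed. Only 1 locus passed, 0.00649% of those tested, and it was the ribosomal RNA locus *rrn-3.1*, which was listed at 0 counts in all 4 *osm-9(ok1677)* libraries at 51 mM NaCl and was not called at 200 mM NaCl. At an unadjusted p of 0.05 there were 277 loci (1.8%), and DESeq2 called 6. Of the 354 lower loci 284 were also called lower at 51 mM NaCl (80.2% of them, and 39.8% of the 713 called lower there), and 352 had a log2 fold change under 0 at 51 mM NaCl. Of the 636 higher loci 535 were also called at 51 mM NaCl (84.1% of them, and 45.5% of the 1177 called higher there). The libraries at the 2 concentrations are different ones of the same strains. Those with the same replicate number had correlated deviations from their group means (r from 0.614 to 0.867 in *osm-9(ok1677)* and 0.621 in N2). The calls at 51 mM NaCl are therefore not an independent repeat of those at 200 mM NaCl. At 51 mM NaCl 7.64% of the loci tested were called higher and 4.63% lower.

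Sperm genes were lower. Of 54 tested, which encode major sperm proteins and other products made in sperm, 53 had a log2 fold change under 0, 6 were called lower (11.1%) by edgeR's quasi-likelihood test and none higher. The exact test called 21 lower and DESeq2 23, both with none higher, and 34 had an unadjusted p of 0.05 or less. The median was -0.74 at 200 mM NaCl, against 0.05 over all loci, and -0.60 at 51 mM NaCl. Their summed level was 2129, 3087, 2301 and 2009 CPM in *osm-9(ok1677)*, against 3789 and 4016 CPM in N2, without overlap. *msd-2*, one of the sperm proteins with a major sperm protein domain, had 32.1, 50.1, 35.6 and 31.9 CPM in *osm-9(ok1677)*, against 71.3 and 78.3 CPM in N2 (log2 fold change -1.0, SE 0.23, adjusted p = 0.0262, edgeR; at most 0.176). The *msp* genes are near-identical copies, so their single values are uncertain. In whole worms, fewer cells of a type and less RNA per cell cannot be told apart. Of 9 germ line genes, 1 was lower by edgeR (11.1%, against 2.3% of all loci) and 2 by DESeq2. Their median log2 fold change was -0.19. The edgeR call was *syp-1* of the synaptonemal complex. It averaged 29.3 ± 1.21 CPM in *osm-9(ok1677)* (SD, n = 4) and 52.1 ± 6.83 CPM in N2 (SD, n = 2). Its log2 fold change was -0.83 (SE 0.11, adjusted p = 0.00143, edgeR). *syp-1* lies in a stretch of chromosome V, described below, where 32.6% of the tested loci were lower. The part of this stretch in its call was not tested.

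Of 28 astacin metalloprotease genes 2 were lower (7.14%) and none higher by the quasi-likelihood test, and the exact test called 1 higher. *nas-20* had 44.2, 33.9, 29.8 and 35.5 CPM in *osm-9(ok1677)*, against 110 and 90.2 CPM in N2 (log2 fold change -1.48, SE 0.27, adjusted p = 0.00956, edgeR; at most 0.0964), and its neighbour *nas-21* fell by 2.61 on the log2 scale. Of 142 cuticle collagen genes 2 were higher (1.41%) and 3 lower (2.11%), shares under those of all loci, with a median log2 fold change of 0.46. *col-147* had 265, 268, 319 and 222 CPM in *osm-9(ok1677)*, against 431 and 892 CPM in N2, where the 2 libraries lay far apart (log2 fold change -1.30, SE 0.27, adjusted p = 0.0167, edgeR; at most 0.213). The collagen and astacin medians of 0.46 and 0.36 stand beside the molting genes, whose median was 1.08. These lists are not separate, since the molting list also names the collagen gene *bli-1* and the astacin genes *nas-36* and *nas-37*.

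The genes of protein synthesis, folding and bulk degradation in the next 4 lists gave no calls. None of 29 proteasome genes was called by edgeR (1 had an unadjusted p under 0.05), nor of 69 ribosomal protein genes (2), 11 genes of protein folding in the endoplasmic reticulum (2) or 8 inducible heat shock genes (0). DESeq2 and edgeR's exact test also called 0 in each of these lists. The medians were -0.06, -0.13, -0.09 and -0.01 on the log2 scale. Loci that join several genes stay out of these lists, and 1 of them, which joins rpl-15 and K11H12.1, was higher (adjusted p = 0.0143, edgeR). Markers of body wall muscle (11 genes), pharynx (6), neurons (12), intestine (7) and epidermis (5) gave no call by edgeR's quasi-likelihood test either, with 0, 0, 2, 1 and 2 genes at an unadjusted p of 0.05. DESeq2 called 1 of the epidermis genes lower and none in the other 4 lists, and the exact test called none in all 5.

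**Figure D4:**
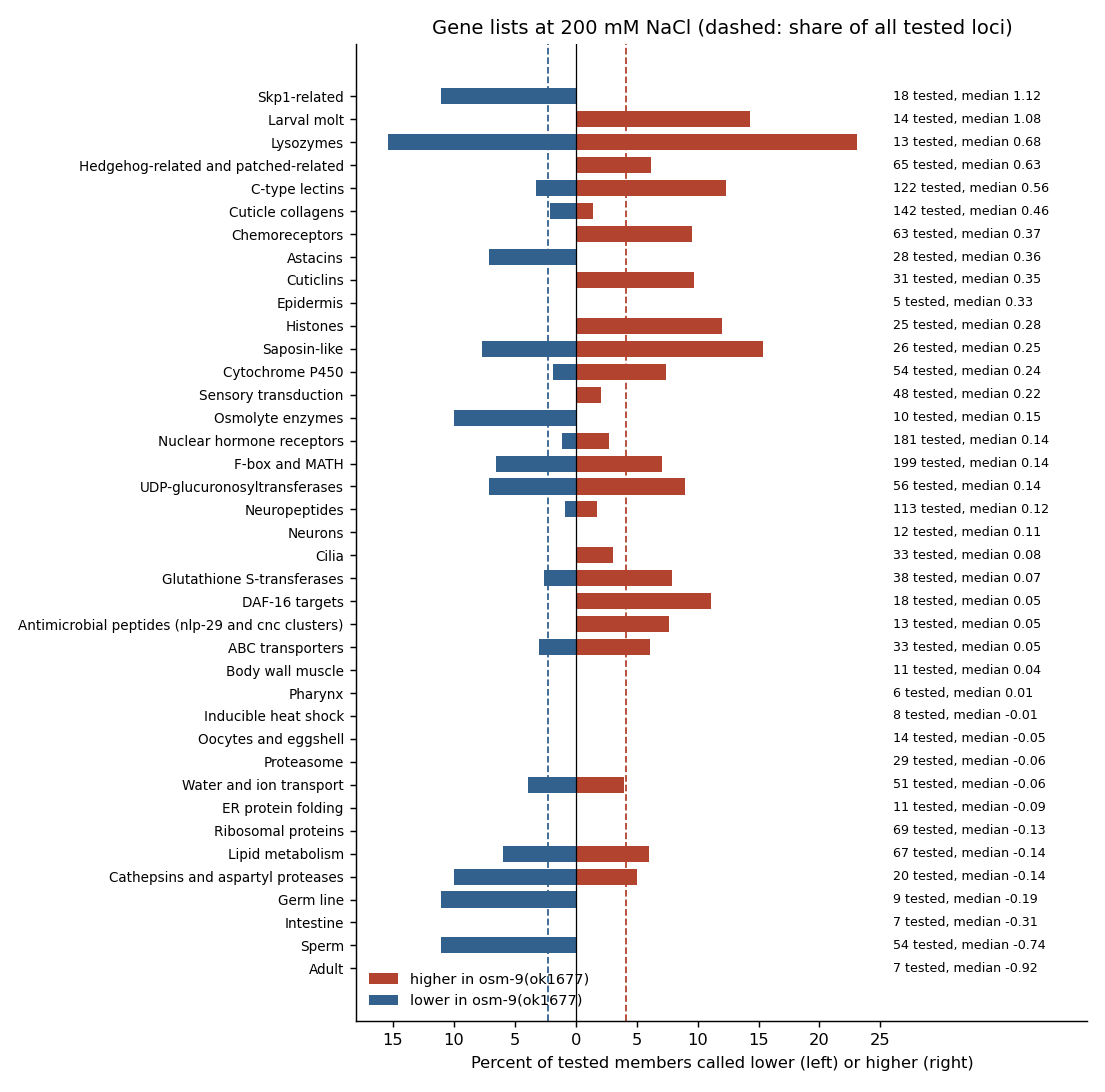
Percent of the tested members of each of 39 gene lists called lower (left) or higher (right) in *osm-9(ok1677)* at 200 mM NaCl, ordered by the median log2 fold change printed at the right; dashed lines mark the 2.3% and 4.13% of all loci tested. Lysozymes have the longest bars in both directions, C-type lectins and saposin-like genes pass the line mostly on the right, and sperm genes only on the left.

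The largest rises were at loci with no or almost no counts in N2. *F07B7.1* (chromosome V, 8872277 to 8873535) had 340, 321, 354 and 288 counts in *osm-9(ok1677)*, against 0 and 0 in N2, at least 217-fold higher against a floor of 3 counts over the 2 N2 libraries (adjusted p = 1.47e-06, edgeR). *C38D9.2* had 126, 134, 107 and 123 CPM in *osm-9(ok1677)*, against 0.511 and 0.659 CPM in N2 (log2 fold change 7.70, SE 0.20, adjusted p = 3.27e-09, edgeR). *F15D4.5* had 48.1, 72.6, 85.2 and 82.3 CPM in *osm-9(ok1677)*, against 1.12 and 1.06 CPM in N2 (log2 fold change 6.03, SE 0.35, adjusted p = 3e-06, edgeR). All 3 kept their calls in all settings. The calpain family gene *clp-10* and the neighbours *ZK218.7* and *ZK218.11* also had 0 counts in N2 and were at least 41.3, 89.5 and 26.5-fold higher. *his-72*, which encodes the histone variant H3.3, rose among the abundant genes, with 254, 335, 316 and 332 CPM in *osm-9(ok1677)*, against 87.6 and 109 CPM in N2 (log2 fold change 1.66, SE 0.21, adjusted p = 0.000923, edgeR).

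Many of the higher loci lay close to *osm-9*. Of the 292 tested loci within 1 Mb of it on chromosome IV, 62 were higher (21.2%) and 1 lower (0.342%), and the median log2 fold change was 0.53. Between 1 and 2 Mb 19 of 285 were higher (6.67%), between 2 and 4 Mb 29 of 497 (5.84%), and beyond 4 Mb 45 of 1516 (2.97%), with medians of 0.02, 0.04 and 0.01. These bins pool both sides of *osm-9*, which differed between 1 and 2 Mb. On the left the window from 2.0 to 2.25 Mb had a median of 0.66 and the one from 1.75 to 2.0 Mb 0.33, and on the right the windows from 5.0 to 5.25 and from 5.25 to 5.5 Mb had medians of -0.48 and -0.27. The median of the nearest loci was raised in every *osm-9(ok1677)* library when set against the N2 mean, by 0.38, 0.46, 0.51 and 0.45 in replicates 1 to 4. At 51 mM NaCl it was 0.57. Within 1 Mb 82.5% of the loci had a log2 fold change above 0. Of these windows of 250 kb, laid out after the values were seen, all 10 from 2.0 to 4.5 Mb of chromosome IV had a median between 0.33 and 0.78, and 72 of the 334 loci there were higher and 3 lower. Over the 401 windows of the genome with at least 10 tested loci, the central 50% of medians lay between -0.01 and 0.13.

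**Figure D5:**
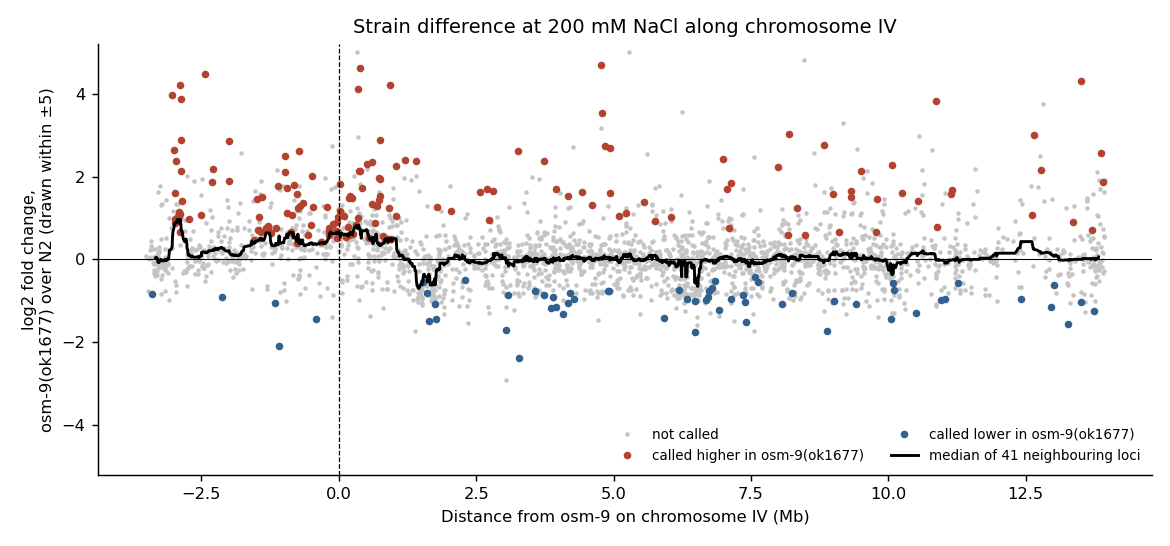
Log2 fold change of *osm-9(ok1677)* over N2 at 200 mM NaCl (vertical axis) against the distance from *osm-9* along chromosome IV in Mb (horizontal axis), with each tested locus as a point and the black line as the median of 41 neighbouring loci. The line runs above 0 on both sides of *osm-9*, where the median of loci within 1 Mb is 0.53; toward the left end of the chromosome it stays above 0 beyond 1 Mb, and on the other side it dips below 0 in part of the range from 1 to 2 Mb.

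Near *osm-9* the genes called higher were of many kinds. In the run of neighbours beside it (3506328 to 3539065) *ced-10*, a Rac GTPase gene, *tsg-101*, a subunit of the ESCRT-I complex, and *unc-33*, an axon guidance gene, were all higher, by 0.69, 0.52 and 0.91 on the log2 scale. *ced-10* had 77.5, 86.8, 82.2 and 84.0 CPM in *osm-9(ok1677)*, against 48.3 and 54.2 CPM in N2 (SE 0.10, adjusted p = 0.003, edgeR). *eel-1*, a HECT-type ubiquitin ligase gene at 3032713 to 3050104, was the most counted single-gene higher locus outside the study's list for 200 mM NaCl. The study does list *eel-1* as higher in the mutant under control conditions. It had 1469, 1241, 1451 and 1404 CPM in *osm-9(ok1677)*, against 731 and 832 CPM in N2. Its log2 fold change was 0.83 (SE 0.15, adjusted p = 0.00868, edgeR), and it was not called in every setting. *vha-19* and *osm-3*, the kinesin motor of sensory cilia, also lie there, with log2 fold changes of 0.58 and 1.49. *osm-3* was the only cilia gene called among 33 tested (3.03%). Because these genes share a stretch of chromosome with the targeted gene, a difference at one of them and a difference of the stretch cannot be told apart.

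The lower loci had stretches of their own. From 16.25 to 17 Mb of chromosome V 28 of 86 tested loci were lower (32.6%) and 2 higher, and the median log2 fold change was -0.61. It was -0.53 at 51 mM NaCl, and -0.51, -0.47, -0.43 and -0.46 in replicates 1 to 4 of *osm-9(ok1677)* set against the N2 mean. This stretch holds *cpl-1* and *syp-1*, described above. It also holds *cand-1*, a regulator of cullin ubiquitin ligases, with 137, 129, 123 and 127 CPM in *osm-9(ok1677)*, against 239 and 222 CPM in N2 (log2 fold change -0.83, SE 0.09, adjusted p = 0.000458, edgeR). *pptr-1*, a regulatory subunit of protein phosphatase 2A, had 45.6, 46.3, 47.4 and 46.0 CPM in *osm-9(ok1677)*, against 81.1 and 88.8 CPM in N2 (log2 fold change -0.88, SE 0.10, adjusted p = 0.000692, edgeR). *ctps-1*, a CTP synthase gene, fell by 0.91 on the log2 scale. In runs of at least 3 lower neighbours in this stretch the log2 fold changes ran from -2.07 (*Y102A5C.3*) to -0.41 (*Y32B12B.4*), and *cpr-2*, also in it, was higher by 2.28.

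Other stretches were higher. Between 3.25 and 3.5 Mb of chromosome V 31 of 50 tested loci were higher (62%) and none lower, with a median of 1.74, and between 1.5 and 1.75 Mb of chromosome II 12 of 32 were higher (37.5%), with a median of 1.62. Between 0.5 and 0.75 Mb of chromosome IV 16 of 30 were higher (53.3%), with a median of 1.04. This last one includes *gex-2*, part of the WAVE actin-regulating complex, with 83.9, 76.1, 78.2 and 83.9 CPM in *osm-9(ok1677)*, against 42.1 and 45.5 CPM in N2 (log2 fold change 0.88, SE 0.10, adjusted p = 0.000607, edgeR). By chromosome the share of higher loci ran from 2.37% on I to 5.98% on IV, and the share of lower loci from 1.16% on X to 3.86% on V. The stretches together hold 532 tested loci, with 133 of the 636 higher and 31 of the 354 lower calls, so most calls of both directions lay outside them. These stretches and runs of neighbours were picked out after the values were seen, and carry no test of their own.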

How the data were processed

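PolyA+ RNA of whole L4 worms was sequenced as paired ends. The authors used TopHat 1.4.1 for alignment to the WS235 assembly and Cufflinks 2.0.1 with Ensembl 71 genes, and deposited read counts per locus without normalization; the processing notes also name edgeR 3.2.4. The strand setting is not given in the sources used here. Samples were grouped by the submitters' labels, and all columns of the deposited counts were used.

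Of 41420 loci listed, 21204 had a count, and edgeR's filterByExpr (minimum count 10, minimum total 15) kept 15403, of which 702 join several genes and were left out of gene lists and names. edgeR 4.0.16 in R 4.3.3 fitted 4 group means to all 12 libraries by quasi-likelihood, with TMM factors and Benjamini-Hochberg adjustment over all loci tested. Positions and current names were taken from Ensembl 115 (WBcel235), which held 15245 of the tested loci. Between libraries of a strain at 200 mM NaCl, 43.8% to 68.7% of the better counted loci (11504 to 11791 per pair) differed by more than sampling noise. All libraries were counted as separate samples. The differences do not show that the libraries come from independent cultures. Counts were also simulated for this comparison over 15403 loci, with changes placed only in the better counted loci. The test recovered 9 of 68 changes of 1.5-fold, 30 of 66 of 2-fold and 63 of 66 of 4-fold. Of its calls, 0.971% fell on unchanged loci. The simulated counts were drawn independently for each library, without the correlation seen between real libraries of the same replicate number. That share therefore need not hold for the real calls. Recovery at loci with low counts was not simulated.

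The 39 lists (29 pathways and families, 10 marker lists), the rule for named genes and the comparison itself were chosen with earlier results of these data known. The rule takes single-gene loci outside the 17 genes the study lists: *osm-9*; the 10 largest rises and 15 largest falls among called loci without overlap and with a mean of at least 1 CPM in the higher strain; the 5 most counted called loci in each direction; loci with 0 counts in every library of 1 strain; the 5 largest in each direction called for the difference between NaCl concentrations as well (none was); the 3 largest called changes in each direction within 2 Mb of *osm-9*; up to 3 called members of each list in each direction by p; and *gpdh-1*, *nlp-29*, *hsp-16.2*, *sod-3*, *vit-2* and *col-19*. Genes named for their place in a run or stretch were chosen after their values were seen. List entries match a prefix followed by digits and points; for cytochrome P450 genes capitals were also allowed. The floor of 3 counts over the libraries of a strain was 0.0382 CPM in *osm-9(ok1677)* and 0.0764 CPM in N2. Intervals and floors cover counting error only. Alternatives were other scaling, filters and tests (DESeq2 1.42.0, edgeR's exact test), the replicate number as a block, and leaving out libraries; leaving out pairs of *osm-9(ok1677)* libraries was chosen after seeing the data. No RefSeq or genome sequence was used here.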

Additional observations from a re-analysis of the deposited data

Results flagged for a closer look

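Of 175 named genes and summed lists, 12 had 1 of the 4 *osm-9(ok1677)* libraries at 200 mM NaCl apart from its other 3, by Dixon's test at 95%, which chance gives in about 1 in 20 groups. Replicate 1 was high for *F33E11.2* (0.096 CPM against 0 in the others), for *nspe-7* (1.15 CPM against 0.101 to 0.214) and for the summed lysozymes (1932 CPM against 1662 to 1679), and low for the summed histones (490 CPM against 629 to 652). Replicate 2 was high for *F57G4.4* (0.107 CPM against 0). Replicate 3 was high for *fbxa-108* (0.81 CPM against 0.623 to 0.643) and for the summed C-type lectins (3703 CPM against 3354 to 3411). Replicate 4 was high for *R02F2.1* (668 CPM against 513 to 535) and *cyp-13A5* (13.1 CPM against 8.59 to 9.31), and low for *F59A1.9* (0 CPM against 0.144 to 0.161), *col-7* (70.9 CPM against 87.7 to 90.1) and *syp-1* (27.5 CPM against 29.8 to 30.1). For *F33E11.2*, *F57G4.4* and *F59A1.9* the gap is 1 to 3 counts.

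The strain difference of *rrn-3.1* differed between the NaCl concentrations, by 20.53 on the log2 scale (adjusted p = 4.08e-05, edgeR). The locus was listed at 0 in the 4 *osm-9(ok1677)* libraries at 51 mM NaCl, against 254793 and 186943 counts in N2. At 200 mM NaCl it had 154284, 136083, 176927 and 280789 counts in *osm-9(ok1677)*, against 190896 and 243727 in N2. The size of the difference is a fitted value against 0 and is no bound.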

How the results depend on the processing

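Numbers of higher and lower loci stayed within 1.5 times of 636 and 354 with RLE factors, with either other filter and with only the 6 libraries at 200 mM NaCl. They were 970 and 847 with DESeq2, 898 and 658 with edgeR's exact test, and 1942 and 1735 at an unadjusted p of 0.05. Leaving out 1 library gave 145 to 563 higher and 79 to 306 lower loci. Without replicates 2 and 3 of *osm-9(ok1677)* there were 370 and 309, and without replicates 1 and 4 there were 311 and 96. DESeq2 called 6 loci for the difference between NaCl concentrations, and the filter of 10 counts in every library left 0 (main 1). The median within 1 Mb of *osm-9*, 0.53, was 0.46 with no filter, 0.46 to 0.56 with 1 library left out, and 0.43 without replicates 2 and 3 of *osm-9(ok1677)*.

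The replicate numbers are shared by 2 pairs of libraries at 200 mM NaCl, and the sources do not say that a number marks a batch. Deviations from the group means correlated between the strains with r of 0.549 for number 1 and 0.201 for number 2. They also did with 0.523 for N2 replicate 2 and *osm-9(ok1677)* replicate 3 and 0.261 for N2 replicate 1 and *osm-9(ok1677)* replicate 4. Deviations of the 2 N2 libraries mirror each other, so these values cannot show whether the numbers pair libraries of the 2 strains. In *osm-9(ok1677)*, same-number libraries at 51 and 200 mM NaCl correlated with r of 0.774, 0.614, 0.867 and 0.689 for numbers 1 to 4. Each was the highest r of its 51 mM library with any library at 200 mM NaCl. In N2 this r was 0.621. With the replicate block there were 1494 higher and 1444 lower loci, and 1157 and 1105 with only the 6 libraries at 200 mM NaCl. The block fit on all libraries includes 633 of the 636 and 352 of the 354. Numbers 3 and 4 occur only in *osm-9(ok1677)*. With only the 6 libraries the block fit therefore takes the strain difference from numbers 1 and 2 alone.

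For *osm-9* the log2 fold change was -0.02 with the block on 6 libraries and between -0.06 (without replicate 1 of N2) and 0.45 with 1 library left out, and for *sod-3* it was 0.04 and, without replicates 2 and 3 of *osm-9(ok1677)*, 0.02; neither gene was called. The other named genes kept their direction under every setting. The cause of these shifts was not tested. Depth limits what can be said of genes near 3 counts.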

Other observations

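Further families gave calls at 200 mM NaCl, to be read against 4.13% higher and 2.3% lower over all loci. Of 63 chemoreceptor genes tested, 6 were higher (9.52%) and none lower by edgeR's quasi-likelihood test (DESeq2 and the exact test called 1 lower), with a median log2 fold change of 0.37. *srx-13* had 1.34, 1.07, 1.11 and 1.51 CPM in *osm-9(ok1677)*, against 0.0511 and 0.0507 CPM in N2, so its N2 level rests on 2 counts and the ratio of *osm-9(ok1677)* to N2 was 24.8 (95% exact interval 6.68 to 207, counting error only). Of 48 sensory transduction genes 1 was higher (2.08%, under the share of all loci): *gcy-19*, a receptor guanylyl cyclase gene, with 6.14, 12.1, 12.1 and 15.5 CPM in *osm-9(ok1677)*, against 0.716 and 0.912 CPM in N2 (adjusted p = 0.00126, edgeR). Of 113 neuropeptide genes *ins-35* and *ins-20*, which encode insulin-like peptides, were higher (1.77%) and *nlp-26* was lower (0.885%), both shares under those of all loci. *nlp-26* had 23.4, 23, 19.9 and 27.1 CPM in *osm-9(ok1677)*, against 36.2 and 52.1 CPM in N2 (log2 fold change -0.92, SE 0.20, adjusted p = 0.0204, edgeR).

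Of 65 hedgehog-related and patched-related genes 4 were higher (6.15%) and none lower by the quasi-likelihood test, and the median was 0.63. DESeq2 called 8 higher and 1 lower, and the exact test 7 and 1. Their summed level was 1969, 2489, 2961 and 2211 CPM in *osm-9(ok1677)*, against 1708 and 2311 CPM in N2. Of 31 cuticlin genes 3 were higher (9.68%), and their summed level was 109, 214, 289 and 145 CPM in *osm-9(ok1677)*, against 108 and 234 CPM in N2. Both sums were highest in replicates 2 and 3 of *osm-9(ok1677)*, as were the larval molt genes with 303, 637, 1020 and 423 CPM, against 253 and 383 CPM in N2, and both overlapped between the strains. The larval molt list also names *qua-1* and *ptr-4*, which belong to the hedgehog-related and patched-related list. The part of the molt genes in these calls was not tested. Among 18 genes linked to the transcription factor DAF-16, *dod-3* and *ftn-1*, a ferritin gene, were higher. *dod-3* had 26.3, 28.8, 61.8 and 58.5 CPM in *osm-9(ok1677)*, against 3.02 and 2.84 CPM in N2 (log2 fold change 3.90, SE 0.60, adjusted p = 0.00316, edgeR). Among 18 Skp1-related genes *skr-3* and *skr-2* were lower, by 0.89 and 0.46 on the log2 scale, while the median of the list was 1.12.

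Loci lower at 200 mM NaCl were not less counted than the rest: the median over loci of the mean CPM of the strains was 15 for the lower loci and 6.49 for the higher ones, against 14 for all loci tested. Pseudogenes made up 28 of the 354 lower and 14 of the 636 higher loci, against 506 of the 15403 tested.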
